A study of Mus musculus with 4 samples.

Results

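The interferon regulatory factor (IRF) genes were followed in sorted LSK cells of mouse fetal liver. Of the 39186 genes in the deposited table, 8 carry the names *Irf1*, *Irf2*, *Irf3*, *Irf4*, *Irf5*, *Irf7*, *Irf8* and *Irf9*, and rows were taken by these names. LSK cells are the Lin−Sca-1+c-Kit+ fraction in which hematopoietic stem cells are enriched. The RNA came from C57BL/6 mice, with 2 samples of *Pich*-KO cells and 2 of *Pich*-WT cells, and was sequenced to ask which transcripts change when PICH, a DNA translocase of mitotic ultrafine bridges, is lost. *Pich*-KO mice carry a small TALEN-made deletion in the second exon of *Pich* in every cell. The whole embryo, and not only the blood system, therefore lacks the protein. The gene is X-linked, so males have a single allele. No other allele and no treatment was given to either group. Fetal livers for sorting were taken at mid-gestation, and the lineage antibodies named in the methods are against CD4, CD8, Gr-1, B220 and Ter119. The labels do not say whether a sample is 1 embryo or a pool, so p-values measure only the spread between these samples, which may be technical.

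The IRF proteins share a DNA-binding domain with a row of conserved tryptophans, which reads repeats of GAAA in the interferon-stimulated response element (ISRE). IRF3 and IRF7 are phosphorylated by TBK1 or IKKε after a nucleic acid sensor such as cGAS fires, and switch on type I interferon genes. IRF9 acts downstream of the interferon receptor in the complex ISGF3, which drives the interferon-stimulated genes, *Irf7* among them. IRF1 is an activator and IRF2 largely its repressor at shared sites. IRF5 serves Toll-like receptor signalling, and IRF4 and IRF8 pair with PU.1 or BATF factors in lymphoid, dendritic and monocytic cells. In hematopoietic stem cells IRF2 is known for holding interferon signalling in check, and IRF8 for steering progenitors towards monocytes and dendritic cells.

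The values are reads counted on each gene and divided by 1 size factor per sample, called normalized counts here. Between 14703215 and 20933919 reads fell on genes per sample. The *Pich* transcript, listed as *Ercc6l*, was higher in *Pich*-KO, with 1142 and 1232 normalized counts against 772 and 661 (log2 fold change 0.73, adjusted p = 0.00887 by limma), and does not check the genotype, since the deletion is small. *Pich*-WT sample 2 had 0 reads on *Ddx3y*, *Uty*, *Kdm5d* and *Eif2s3y*, the Y-linked genes examined, while the other 3 samples had reads on all of them. *Xist*, made from the inactive X of females, had 699 reads in that sample. It had 12 in *Pich*-WT sample 1, and 13 and 4 in *Pich*-KO samples 1 and 2. By these genes *Pich*-WT sample 2 is female and the other 3 samples are male. Sex thus differs within *Pich*-WT and in part with genotype, and its effect was not tested. *Kit* and *Ly6a*, the genes of c-Kit and Sca-1, were present in every sample, at 2328 to 4447 and 901 to 3586 normalized counts. Marker genes of other cell types were also read, to unlike extents in the groups. The 12 macrophage markers summed to 58877 and 60352 normalized counts in *Pich*-WT but to 9151 and 7997 in *Pich*-KO, and all 12 fell; *Vsig4* was at 2 and 0 reads in *Pich*-KO. The 7 markers of granulocyte-monocyte progenitors summed to 14966 and 17970 in *Pich*-WT and to 65435 and 118118 in *Pich*-KO, with 4 higher and 1 lower. *Mpo* alone gave 10351 and 12533 of the *Pich*-WT sums and 54647 and 90492 of the *Pich*-KO sums. Of 9 LSK and stem cell markers, 1 was higher, *Ly6a*, which is itself interferon-inducible, and 5 were lower, among them *Procr* and *Hlf*, genes of stem cells, with log2 fold changes of −2.88 and −2.37. The 7 erythroid markers all fell, and their sums were 153424 and 116159 against 26034 and 28534. Marker counts, here and below, are of genes past an adjusted p of 0.05 by limma. Of all genes tested, 7.58% were higher and 9.6% lower. Among genes with at least 10 reads in every sample, these shares were 16.8% and 19.1%. In sorted bulk RNA, fewer cells of a type and less RNA per cell cannot be told apart.

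The family did not move as one. By limma with Benjamini-Hochberg adjustment over 32428 genes (those whose mean reached 1), *Irf7* and *Irf9* rose in *Pich*-KO LSK cells, *Irf2* and *Irf5* fell, and *Irf1*, *Irf3*, *Irf4* and *Irf8* did not pass an adjusted p of 0.05. Thus 2 of the 8 members were higher and 2 lower, where 7.58% of all genes tested were higher and 9.6% lower (17.2% in either direction). All 8 members passed the filter on low values through both groups and had at least 10 reads in every sample. Among the 13924 genes with as many reads, 35.9% were called, 16.8% higher and 19.1% lower, so 4 called of 8 is not far from what genes of this abundance show. edgeR, tried on the recovered reads with TMM scaling, called the same 4 members, beside 39.3% of the genes it tested. The median log2 fold change of the members was 0.02, equal to the 0.02 of all genes tested. Values of the 2 groups did not overlap for 7 members, with *Pich*-KO above for 4 and below for 3, against 56.1% of all genes tested (28.9% above and 27.2% below).

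**Figure D1:**
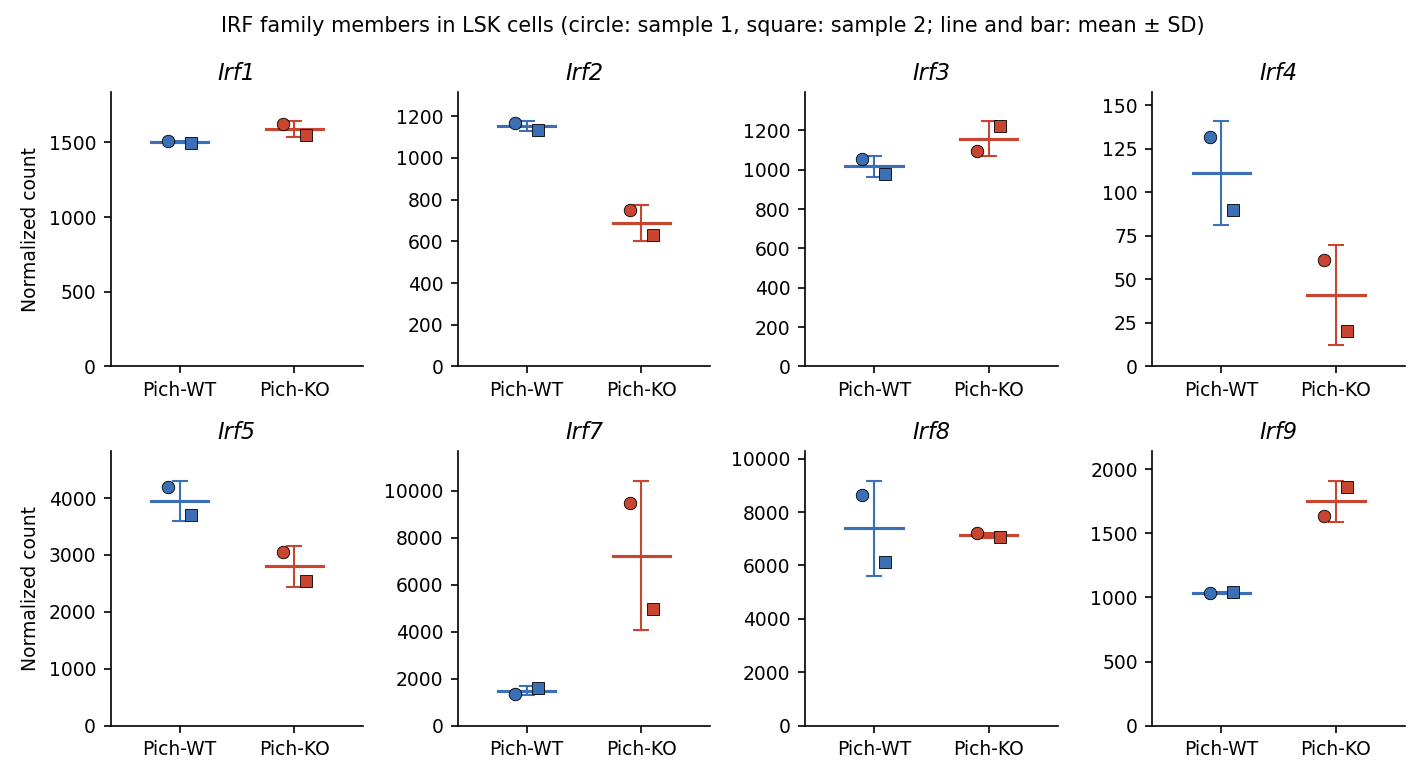
Normalized counts (vertical axes, each from 0) of the 8 members in *Pich*-WT and *Pich*-KO LSK cells, with circles for sample 1, squares for sample 2, and lines with bars for the mean ± SD of 2 samples. *Irf7* and *Irf9* stand above the *Pich*-WT samples, *Irf2* and *Irf5* below them, and *Irf8* overlaps.

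*Irf7*, the factor that amplifies interferon-α production, had the largest log2 fold change of the family with all 4 samples in the fit; without *Pich*-KO sample 1, that of *Irf4* was larger in size. It reached 9487 and 4981 normalized counts in *Pich*-KO samples 1 and 2, against 1356 and 1615 in *Pich*-WT samples 1 and 2. Both *Pich*-KO samples were above both *Pich*-WT samples, and sample 1 was well above sample 2. On the log2(value + 1) scale the fold change was 2.22 (standard error 0.26, 95% interval 1.61 to 2.82, adjusted p = 0.000916 by limma), a 4.87-fold difference of the means. Without *Pich*-KO sample 1 it was 1.75, and without sample 2 it was 2.68. In log2 units the *Pich*-KO samples differed from each other by 0.93, and the *Pich*-WT samples by 0.25 in the other direction.

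*Irf9*, the DNA-binding subunit of ISGF3, was the other member that rose. It had 1634 and 1862 normalized counts in *Pich*-KO against 1035 and 1039 in *Pich*-WT. The groups were well apart, and here *Pich*-KO sample 2 was the higher one, the opposite order to *Irf7*. Its log2 fold change came to 0.75 (standard error 0.12, 95% interval 0.47 to 1.03, adjusted p = 0.00433 by limma). *Stat2*, whose protein binds IRF9 in ISGF3, rose by 1.07 in log2 units (adjusted p = 0.00254 by limma).

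*Irf2*, the repressor of the family, fell from 1168 and 1136 normalized counts in *Pich*-WT to 748 and 629 in *Pich*-KO. The *Pich*-WT samples were close together and both *Pich*-KO samples lay well below them. In log2 units the change was −0.75 (standard error 0.14, 95% interval −1.07 to −0.42, adjusted p = 0.00845 by limma). *Irf1*, its activating counterpart and itself an interferon-stimulated gene, had 1625 and 1551 normalized counts in *Pich*-KO against 1508 and 1497 in *Pich*-WT. These values did not overlap, yet they differed by little. The log2 fold change of *Irf1* was 0.08 with a 95% interval of −0.18 to 0.33 (adjusted p = 0.711, limma), so a change beyond 0.33 in log2 units lies outside the interval. The ratio of *Irf1* to *Irf2* normalized counts was 2.17 and 2.47 in *Pich*-KO against 1.29 and 1.32 in *Pich*-WT, a description of 2 against 2 samples with no test; this and the ratios that follow are not divided by gene length, and only their change between samples is read.

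The windows upstream of *Irf1*, *Irf2*, *Irf7* and *Irf8* are shown because they set members with unlike changes side by side, with the sites that interferon signalling is known to use. The sequences are those of RefSeq on GRCm38.p6, which had windows for all 8 members, written 5′ to 3′ on the gene's strand and ending where the deposited table starts the gene. Capitals mark matches, on either strand, to the ISRE core (GAAA, any 2 bases, GAAA), to the STAT site GAS (TTC, any 3 bases, GAA) and to the composite IRF and PU.1 element EICE (GGAA, any 2 bases, GAAA).
Irf1, chr11:53769764-53770013, plus strand: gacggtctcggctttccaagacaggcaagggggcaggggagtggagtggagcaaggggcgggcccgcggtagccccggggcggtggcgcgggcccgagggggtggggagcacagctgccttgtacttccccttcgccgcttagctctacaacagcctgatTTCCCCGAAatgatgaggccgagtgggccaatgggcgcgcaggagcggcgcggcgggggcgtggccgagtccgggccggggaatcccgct
Irf2, chr8:46739495-46739731, plus strand: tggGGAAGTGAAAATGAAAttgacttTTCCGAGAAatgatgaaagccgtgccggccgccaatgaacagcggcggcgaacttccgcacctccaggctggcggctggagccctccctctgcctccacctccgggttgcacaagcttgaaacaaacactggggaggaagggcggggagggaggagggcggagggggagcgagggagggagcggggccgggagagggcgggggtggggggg
Irf7, chr7:141266482-141266674, minus strand: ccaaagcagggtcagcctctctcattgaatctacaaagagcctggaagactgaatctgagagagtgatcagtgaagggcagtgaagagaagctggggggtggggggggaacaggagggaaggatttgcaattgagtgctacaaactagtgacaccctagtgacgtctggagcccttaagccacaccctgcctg
Irf8, chr8:120736108-120736357, plus strand: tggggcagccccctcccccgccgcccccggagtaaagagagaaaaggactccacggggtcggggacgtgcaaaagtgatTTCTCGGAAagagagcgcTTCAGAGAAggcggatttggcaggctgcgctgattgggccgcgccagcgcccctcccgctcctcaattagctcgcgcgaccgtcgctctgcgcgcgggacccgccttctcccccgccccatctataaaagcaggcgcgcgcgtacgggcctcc

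*Irf1* has 1 GAS match, TTCCCCGAA, at 90 to 82 bases before the RefSeq start site. *Irf2* has an EICE match that overlaps its ISRE match, GAAAATGAAA at 241 to 232 bases before the start, with a GAS match 224 to 216 bases before it. *Irf8* has 2 GAS matches, at 171 to 163 and 153 to 145 bases before the start. In the RefSeq windows, which run from 250 bases before to 50 after each start, the letters of none of the 3 motifs were found for *Irf3*, *Irf4*, *Irf5*, *Irf7* and *Irf9*. Thus *Irf2*, which fell, is the only member with an ISRE match, and *Irf7* and *Irf9*, which rose, have no match in these windows, which says only that these letters are not there. The *Irf9* windows lie wholly inside the gene as the deposited table bounds it. Bases upstream of that start were therefore not read for *Irf9*. Of all 32851 windows, 3.44% held an ISRE, 8.30% a GAS and 2.72% an EICE match.

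*Irf3*, the constitutive partner of IRF7 that is controlled by phosphorylation, had 1095 and 1220 normalized counts in *Pich*-KO against 1054 and 980 in *Pich*-WT. The lower *Pich*-KO sample was only just above the higher *Pich*-WT sample. Its log2 fold change was 0.19 with a 95% interval of −0.11 to 0.48 (adjusted p = 0.412, limma). mRNA levels do not show whether the protein was phosphorylated. The ratio of *Irf7* to *Irf3* normalized counts was 8.66 and 4.08 in *Pich*-KO against 1.29 and 1.65 in *Pich*-WT, and that of *Irf9* to *Irf3* was 1.49 and 1.53 against 0.981 and 1.06.

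*Irf5*, abundant in macrophages and monocytic cells, fell from 4201 and 3696 normalized counts in *Pich*-WT to 3056 and 2539 in *Pich*-KO. The groups did not overlap, and sample 1 was the higher one in each. Its log2 fold change was −0.50 (standard error 0.12, 95% interval −0.78 to −0.22, adjusted p = 0.0259 by limma), and it did not pass with a pseudocount of 0.1 (adjusted p = 0.0519, where 8.18% of genes were lower) or without a filter on the mean (adjusted p = 0.0718, where 5.94% were). The macrophage markers fell in the same samples, with a median log2 fold change of −4.84, and their part in the fall of *Irf5* was not tested. *Csf1r* and *Cd68*, the macrophage markers that fell least, had log2 fold changes of −1.33 and −1.96.

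*Irf8*, the monocyte and dendritic cell factor, had 7202 and 7052 normalized counts in *Pich*-KO against 8652 and 6128 in *Pich*-WT. The *Pich*-KO samples lay between the *Pich*-WT samples. This gave a log2 fold change of −0.03 with a 95% interval of −0.37 to 0.31 (adjusted p = 0.925, limma), and its sign turned to 0.22 without *Pich*-WT sample 1. *Irf8* and *Irf5* are both myeloid factors, and the ratio of *Irf8* to *Irf5* was 2.36 and 2.78 in *Pich*-KO against 2.06 and 1.66 in *Pich*-WT, without overlap and with no test. Dendritic cell markers, where IRF8 is highest, were at 4 lower and 0 higher of 7, with *Clec9a* at 6 and 2 reads in *Pich*-KO against 231 and 114 reads in *Pich*-WT. Of the 7 markers of granulocyte-monocyte progenitors, cells that also use IRF8, 4 were higher, *Csf2ra* was lower (log2 fold change −0.66), and *Ms4a3* and *Elane* overlapped between groups; *Mpo* went from 11442 ± 1543 to 72570 ± 25346 normalized counts (SD, n = 2). Their part in the level of *Irf8* was not tested.

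*Irf4*, the lymphoid and dendritic member, was the lowest member per kb, with 56 and 18 reads in *Pich*-KO against 169 and 90 in *Pich*-WT. In normalized counts these were 61.1 and 20.5 against 132 and 90. Both *Pich*-KO samples were below both *Pich*-WT samples, and *Pich*-KO sample 2 was the lowest. The log2 fold change was −1.59 (standard error 0.50, 95% interval −2.75 to −0.44), with an unadjusted p of 0.0131 and an adjusted p of 0.0683 by limma, which did not pass the threshold. It ran from −2.36 without *Pich*-KO sample 1 to −0.83 without *Pich*-KO sample 2. DESeq2 on the recovered reads called it lower (adjusted p = 0.018), as it did 21.4% of the genes to which it gave an adjusted p. Of 8 B lineage markers 1 was higher and 0 lower, *Rag1*, and the summed level of the list was 1446 and 2461 normalized counts in *Pich*-KO against 2155 and 1764 in *Pich*-WT.

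**Figure D2:**
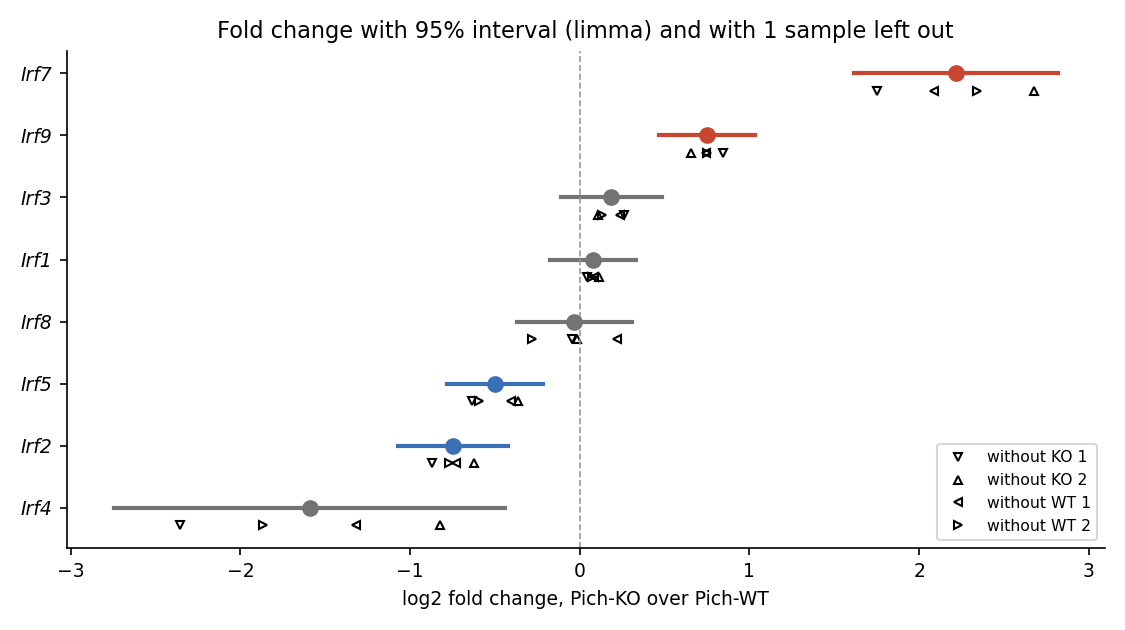
Log2 fold change of each member, *Pich*-KO over *Pich*-WT (horizontal axis), with dots and lines for the limma estimate and its 95% interval, red for higher, blue for lower and grey for not past the test, and open triangles for the estimate with 1 of the 4 samples left out. *Irf7* stays at 1.75 or more and *Irf9* at 0.66 or more in each of these, and the triangles of *Irf8* lie on both sides of 0.

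The tests rest on few samples. The smallest p that an exact permutation of 2 against 2 samples allows, two-sided, is 0.333, and with limma's prior variance set equal for all genes 0 genes passed, although 7377 genes and 3 of the 8 members (*Irf2*, *Irf7* and *Irf9*) had an unadjusted p under 0.05. With *Pich*-KO sample 2, *Pich*-WT sample 1 or *Pich*-WT sample 2 left out, 0 genes of the table passed limma's adjusted threshold, with 7572, 6062 and 5716 genes at an unadjusted p under 0.05; without *Pich*-KO sample 1, *Irf7* and *Irf9* passed and *Irf2* and *Irf5* did not (adjusted p = 0.0517 and 0.0962).

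To order the members by level, values were taken per kb, as normalized counts per kb of all annotated exons of a gene. In *Pich*-WT LSK cells *Irf5* led with 1359 ± 123 per kb (SD, n = 2), then *Irf8* with 1047 ± 253, *Irf7* with 393 ± 48.5, *Irf1* with 378 ± 1.87, *Irf3* with 296 ± 15.3, *Irf9* with 193 ± 0.563, *Irf2* with 156 ± 3.09 and *Irf4* with 22.6 ± 6.07. *Irf7* and *Irf1* overlapped in this order, and the lower *Irf5* sample was only just above the higher *Irf8* sample. In *Pich*-KO LSK cells *Irf7* moved to the top with 1916 ± 844 per kb, followed by *Irf8* with 1010 ± 15.0 and *Irf5* with 963 ± 126, which overlapped. *Irf1* came next with 399 ± 13.3, then *Irf3* with 336 ± 25.6 and *Irf9* with 325 ± 29.9, which again overlapped, and *Irf2* and *Irf4* were last with 93.1 ± 11.4 and 8.32 ± 5.86.

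Summed per kb, the 8 members came to 5729 and 4372 in *Pich*-KO against 4094 and 3595 in *Pich*-WT. Without *Irf7* the sums were 3217 and 3053 against 3735 and 3167, so the higher total of the *Pich*-KO samples came from *Irf7*. Its share of the family level was 43.9% and 30.2% in *Pich*-KO against 8.77% and 11.9% in *Pich*-WT. The share of *Irf5* was 18.4% and 19.99% against 35.3% and 35.4%, and that of *Irf8* was 17.8% and 22.9% against 29.96% and 24.2%. The same counts were also divided by the length of the principal transcript. That length leaves out retained introns and rare exons, but reads from them stay in the counts. Per kb of the principal transcript, the share of *Irf7* was 37.5 ± 9.98% in *Pich*-KO and 10.8 ± 2.42% in *Pich*-WT (SD, n = 2). On this scale *Irf8* rather than *Irf5* led in *Pich*-WT, with 35.6 ± 5.05% against 24.3 ± 0.268%.

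**Figure D3:**
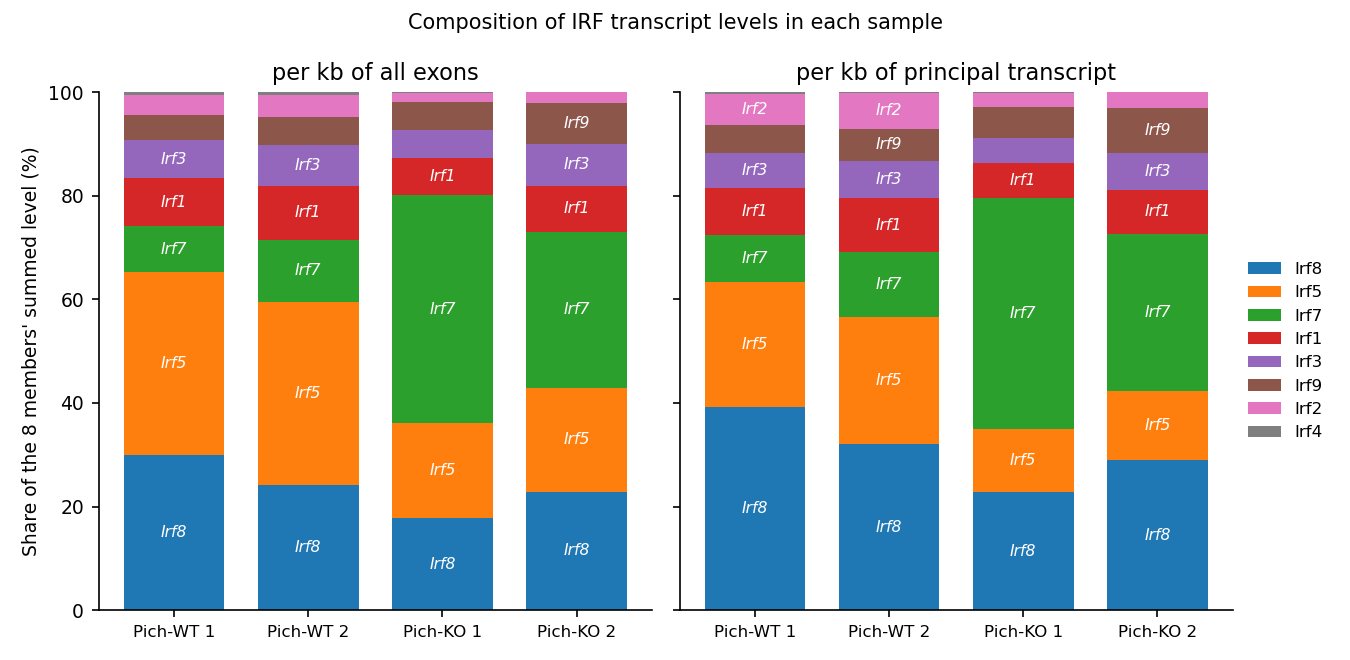
Share of each member in the summed level of the 8 members (vertical axis, percent) in each sample, per kb of all exons (left) and per kb of the principal transcript (right). The *Irf7* segment is 30.2% to 43.9% of the *Pich*-KO bars and 8.77% to 11.9% of the *Pich*-WT bars on the left.

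The genes around the family were read from 7 lists of 90 genes, of which 89 were tested. Of these, 43 were higher and 14 lower in *Pich*-KO by limma at an adjusted p of 0.05, beside 7.58% and 9.6% of all genes tested. Most of the 89, but not the *Ifna* genes, *Ifnb1*, *Nos2*, *Ido1*, *Bcl6* and *Il12b*, had at least 10 reads in every sample, and among all genes with as many reads 16.8% were higher and 19.1% lower. The lists name what each factor is known to bind or need, and no binding was measured here. They were chosen with earlier results of these data known, among them the interferon response that the paper reports. The counts therefore describe these lists and do not test them against all genes. Among 17 sensors, adaptors and kinases that activate IRF3, IRF5 or IRF7, 8 were higher and 2 lower, with a median log2 fold change of 0.52. *Ifih1*, the RNA sensor MDA5 and itself interferon-stimulated, rose most, from 482 ± 7.54 to 1793 ± 684 normalized counts (SD, n = 2; log2 fold change 1.84, adjusted p = 0.00141, limma). *Traf3*, the adaptor between sensors and TBK1, rose from 153 ± 7.53 to 474 ± 8.18 (log2 fold change 1.62, adjusted p = 0.000669, limma). *Tlr3* and *Mavs* fell, with log2 fold changes of −2.33 and −0.59 (adjusted p = 0.00247 and 0.0135, limma), while *Tlr7*, *Tlr9*, *Ticam1*, *Myd88*, *Irak1*, *Irak4* and *Slc15a4* did not pass.

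Of 12 partner proteins 4 were higher and 2 lower, with a median of 0.14. Besides *Stat2*, *Ep300*, a coactivator of IRF3, and *Irf2bp2*, a corepressor that binds IRF2, rose (log2 fold changes 0.84 and 0.96). Its relative *Irf2bp1* fell from 1185 ± 33.9 to 614 ± 132 normalized counts (log2 fold change −0.96, adjusted p = 0.00619, limma). *Batf3*, the partner of IRF8 in dendritic cells, fell from 259 ± 52.5 to 48.3 ± 8.82 (log2 fold change −2.40, adjusted p = 0.000774, limma), as the dendritic cell markers did. *Spi1*, which encodes PU.1, had 6614 and 6775 normalized counts in *Pich*-KO against 6316 and 5918 (adjusted p = 0.352, limma).

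Of 9 genes that restrain IRF signalling, 3 were higher and 3 lower. *Usp18*, which blocks the interferon receptor and is induced by ISGF3, rose from 237 ± 10.8 to 4881 ± 2559 normalized counts (log2 fold change 4.25, adjusted p = 0.000113, limma). *Socs3* and *Tnfaip3*, brakes on cytokine and NF-κB signalling, fell with log2 fold changes of −1.58 and −0.82 (adjusted p = 0.00826 and 0.00463, limma).

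The targets of ISGF3, and of IRF3 and IRF7, were higher or did not pass in limma's test. All 13 ISGF3 targets were higher, with a median log2 fold change of 2.86, from 1.36 for *Ifi35* and 1.62 for *Adar*, an RNA editing enzyme, to 4.21 for *Ifi44*, which went from 71.1 ± 0.083 to 1459 ± 852 normalized counts (adjusted p = 0.000233, limma). *Irgm1*, an immunity-related GTPase, rose from 257 ± 123 to 4133 ± 728 (log2 fold change 4.08, adjusted p = 0.000113, limma). Of 12 tested IRF3 and IRF7 targets, 8 were higher and 0 lower. The count was 5 with a pseudocount of 0.1, with at least 10 reads in every sample or with edgeR, and 4 with DESeq2. With at least 10 reads in every sample, the *Ifna* genes and *Ifnb1* were not tested, so fewer genes stood behind that count. The 8 called higher were *Isg15*, *Ifit1*, *Ifit2*, *Ifit3* and *Rsad2*, and *Ifna1*, *Ifna2* and *Ifna4* with at most 1 read in a *Pich*-WT sample. No gene was put in both lists, but the first 5 are also interferon-stimulated genes. The lists therefore do not separate IRF3 and IRF7 from ISGF3. *Isg15* rose from 201 ± 26.3 to 3294 ± 945 normalized counts (log2 fold change 4.001, adjusted p = 3.7e-05, limma). Among the 8 called higher, the smallest rises were those of *Ifit2* and *Ifit3*, 1.28 and 1.92 in log2 units. *Ifna2* had 26 and 6 reads in *Pich*-KO and 0 in both *Pich*-WT samples, so its mean was at least 6.58-fold higher against a floor of 3 reads per library. The median of this list was 2.42 as fitted and 1.99 with the 4 *Ifna* genes at their lower bounds. *Ifnb1*, *Ifna5*, *Ccl5* and *Cxcl10* did not pass. The *Pich*-KO samples were unlike in this list: 10 of 12 genes were higher in sample 1, with a median log2 difference of 1.35, as for *Irf7*, and for ISGF3 targets 12 of 13 with a median of 0.36. Reads of *Ifna*, *Ifit* and *Oas* genes could have been split among close paralogs in the counting.

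The targets of the other members were mixed. Of 15 IRF1 targets, 7 were higher and 2 lower although *Irf1* itself did not pass, with a median log2 fold change of 0.57. *Nlrc5*, the activator of MHC class I genes, rose from 282 ± 21.02 to 1652 ± 274 normalized counts (log2 fold change 2.54, adjusted p = 7.5e-05, limma). *Ciita*, its counterpart for MHC class II and a gene of antigen-presenting cells, fell from 476 ± 123 to 17.3 ± 0.283 (log2 fold change −4.68, adjusted p = 6e-05, limma). *Nos2*, with 3 and 4 reads against 24 and 24, fell as well. Of 11 genes known as targets of IRF8 and PU.1, 0 were higher and 5 lower, with a median of −0.99 (−1.04 with 1 gene at its bound), while *Irf8* and *Spi1* did not pass. *Ctss* and *Cst3*, lysosomal genes also high in macrophages, fell most, with log2 fold changes of −1.61 and −1.42 (adjusted p = 0.00024 and 0.000511, limma). Among the 5 called lower, *Mpeg1* and *Blnk* fell least, with −0.87 and −1.04. *Cybb*, *Ctsc* and *Ly86* did not pass. The fall of the macrophage and dendritic cell markers stands beside both *Ciita* and this list, and its part in them was not tested.

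**Figure D4:**
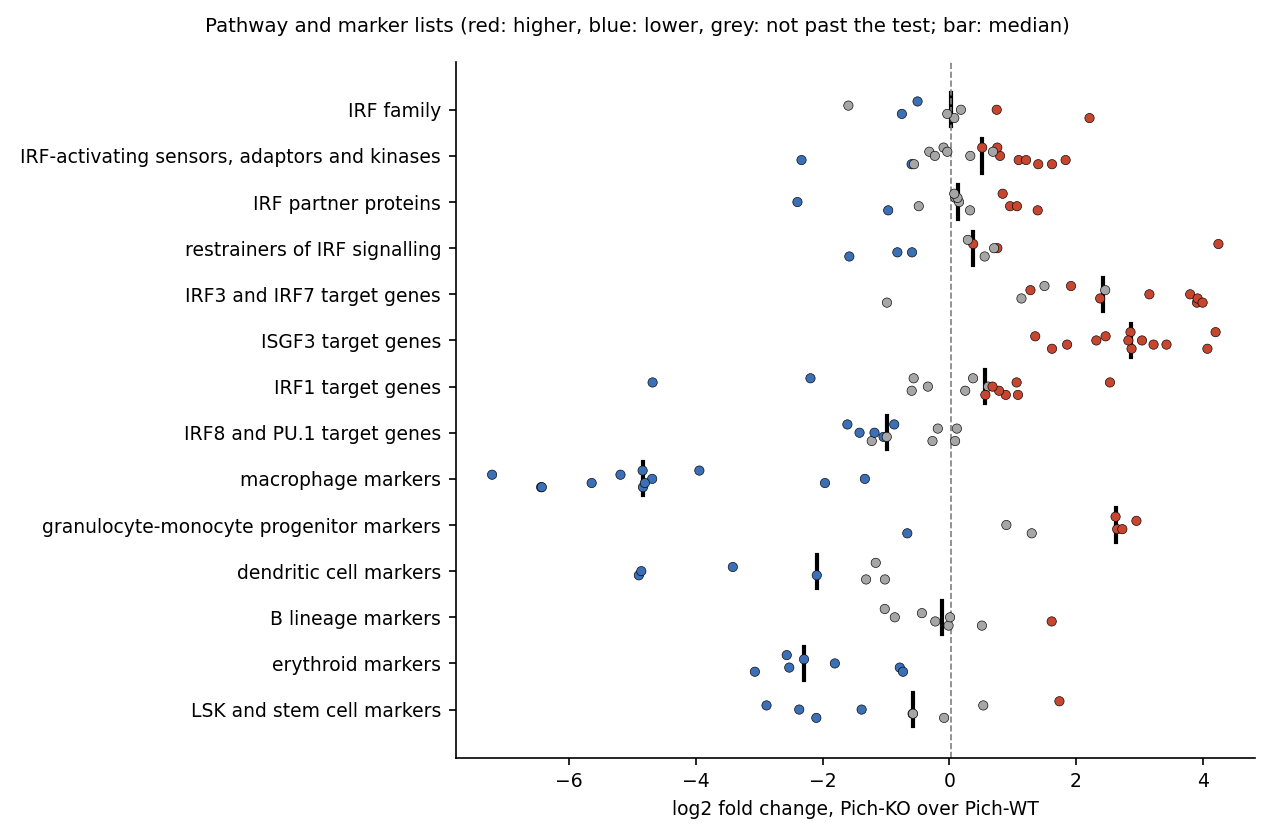
Log2 fold change, *Pich*-KO over *Pich*-WT (horizontal axis), of each tested gene in the IRF family, the 7 pathway lists and the 6 marker lists, with red dots for higher, blue for lower, grey for not past the test, black bars for medians and a dashed line for the median of all genes. All ISGF3 targets lie to the right of 1, and all macrophage markers to the left of −1.

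ISRE matches upstream of genes that rose are shown because this is the element the family reads. Of 12 IRF3 and IRF7 targets with a RefSeq window, 10 held an ISRE match, as did 4 of 9 ISGF3 targets, where 3.99% of all 27025 genes with a window held one. These are descriptions of letters, and no occupancy was measured. Both lists are of known targets of factors that read this element, so a high share was given by the choice of genes. The *Ifna* genes are close paralogs and not separate cases. In *Ifna1* and *Ifna5* the 30 bases around the match are identical. Each stretch is 5′ to 3′ on the gene's strand on GRCm38.p6, with 1 match in capitals, which in *Ifit1* and *Rsad2* is read on the other strand and so shows TTTC in place of GAAA. *Isg15*, *Irgm1*, *Ifna4* and *Ifit1* hold further matches, overlapping ones in *Isg15* and *Irgm1*.
Isg15, chr4:156200871-156200900, minus strand: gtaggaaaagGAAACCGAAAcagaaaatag
Irgm1, chr11:48871425-48871454, minus strand: tcaagaaataGAAACCGAAActgattctca
Oas3, chr5:120777715-120777744, minus strand: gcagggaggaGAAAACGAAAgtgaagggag
Ifna4, chr4:88841688-88841717, plus strand: gtgaagtaaaGAAAGTGAAAagagaattgg
Ifit1, chr19:34640794-34640823, plus strand: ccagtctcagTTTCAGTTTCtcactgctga
Rsad2, chr12:26456553-26456582, minus strand: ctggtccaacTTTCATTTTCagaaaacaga

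*Isg15* and *Irgm1* share the same 10 letters, GAAACCGAAA, at 72 to 63 and at 24 to 15 bases before the start site. Their log2 fold changes were 4.001 and 4.08, and those of *Oas3*, *Ifna4*, *Ifit1* and *Rsad2* were 2.88, 3.16 (a fitted value with 1 and 0 reads in *Pich*-WT), 3.80 and 2.38. By contrast *Cxcl10* and *Ifna5*, with matches of the same kind, did not pass, and *Ifna6*, which has one too, was not tested.

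The genes whose profiles were most like that of *Irf7* over the 4 samples, by the root mean square distance of centred log2 values among 10543 genes with a mean of at least 100, were *Trp53inp1*, a p53 target (distance 0.0589), *Zbp1*, a nucleic acid sensor (0.0939), and *Slfn8*, a Schlafen family gene (0.105), where the median gene lay at 1.15. Those most like *Irf8* were *Inpp5f*, *Vamp4* and *Trim58*, at 0.02 to 0.04 with a median gene at 0.32. With 4 samples this likeness describes these libraries only.

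Several members share bases with other genes of the table. *Irf7* (ENSMUSG00000025498, chr7:141262706-141266481, minus strand) overlaps *Phrf1* on the other strand by 45 bases, and *Phrf1*, rose by 0.51 in log2 units (adjusted p = 0.00885 by limma). *Irf9* (ENSMUSG00000002325, chr14:55603571-55610030, plus strand) follows *Rnf31*, with 123 bases shared, and its next neighbour *Psme2*, a proteasome activator gene; these rose by 0.55 each in log2 units (adjusted p = 0.0195 and 0.00739, limma), less than *Irf9*. *Irf3* (ENSMUSG00000003184, chr7:44997648-45002848) shares 1065 bases with *Bcl2l12* on the other strand, and *Irf5* (ENSMUSG00000029771, chr6:29526625-29541871) shares 1045 bases with *Tnpo3*, whose log2 fold changes were 0.13 and −0.02, neither past the test. *Dusp22*, 37995 bases to the left of *Irf4*, fell, with a log2 change of −1.50 (adjusted p = 0.000941 by limma). The library kit does not mark strand, so reads from the shared bases cannot be told apart. *Irf8* (ENSMUSG00000041515, chr8:120736358-120756694) overlaps no gene of the table, and the genes inside or next to *Irf1* (ENSMUSG00000018899, chr11:53770014-53778374) and *Irf2* (ENSMUSG00000031627, chr8:46739732-46847458) had under 51 normalized counts in every sample.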

How the data were processed

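RNA of sorted LSK cells, with 2 samples per genotype, was sequenced. In the table that the authors deposited each value is a signal made from reads counted per gene and divided by 1 size factor per sample. The aligner and counter of this table are not given in the sources used here; the submitters' processing notes name Bowtie 0.12.2, mm8 and mm9, but 97.8% of 39163 genes found in GENCODE M21 had its GRCm38 start and end, so coordinates are on GRCm38. Gene lengths in the table equal the union of exons for 97.4% of genes. Columns with the authors' own group means, fold changes and p-values were not used.

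Values were whole multiples of 1 step in every sample (100% within 0.01 of a whole number), which gave back the reads. limma 3.58.1 (R 4.3.3) was fitted to log2(value + 1) over genes whose mean reached 1, letting the prior variance depend on mean expression, with p-values adjusted by Benjamini-Hochberg over all those genes; fold changes on this scale understate the change of low genes. edgeR 4.0.16 and DESeq2 1.42.0 on the recovered reads were alternatives, with the others named in the closing section. The fits were also run on simulated reads with the same spread for every gene and group. That run checks the code and does not show the error rates on these samples. Samples of a group differed beyond sampling noise (chi-square per degree of freedom 17.7 and 9.54). Members and lists were chosen with earlier results of these data known. Named genes are the 8 members, up to 2 genes at each end of a list among those past the threshold, overlapping and nearest genes, and the 3 most like *Irf7* and *Irf8* in profile; some genes under this rule are not reported here, and further genes were named after their values were seen, to complete a list's count or show a site. Principal transcript lengths (APPRIS, GENCODE M21) and the share of calls among genes with at least 10 reads per sample were added after the data were seen. Intervals from limma are 95% intervals.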

Additional observations from a re-analysis of the deposited data

How the results depend on the processing

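Counts of calls moved most without the variance trend and with a sample left out. Without the variance trend, 0 genes were higher and 0 lower (7377 at an unadjusted p under 0.05), and so 0 and 0 members and 0 and 0 pathway genes, with the log2 fold changes of *Irf2*, *Irf5*, *Irf7* and *Irf9* at −0.75, −0.50, 2.22 and 0.75 as before but adjusted p values of 0.19, 0.321, 0.118 and 0.181. A pseudocount of 0.1 and no filter on the mean left 1 member lower each, because *Irf5* (−0.50 in both) no longer passed. *Irf4* passed with at least 10 reads in every sample (−1.59, adjusted p = 0.0438), with DESeq2 (−1.44) and with the replicate block (−1.59). Leaving out each sample in turn, where the lone sample of a group is assumed to vary like the other group, gave 0 to 548 genes higher and 0 to 1193 lower, 0 to 2 members higher and 0 to 0 lower, and 0 to 19 pathway genes higher and 0 to 6 lower. The log2 fold changes then ran from −0.87 to −0.62 for *Irf2*, −0.63 to −0.37 for *Irf5*, 1.75 to 2.68 for *Irf7*, 0.66 to 0.84 for *Irf9*, −2.36 to −0.83 for *Irf4* and −0.28 to 0.22 for *Irf8*, which turned to 0.22 without *Pich*-WT sample 1. The cause was not tested. The replicate numbers pair nothing that the labels name, and the deviations of same-numbered samples had a correlation of 0.0409 over 13924 genes. The fit with a replicate block called 6996 genes in place of 5572, and beside *Irf4* no member's call changed. edgeR with TMM or upper-quartile scaling changed no member's call. Counts of reads limit *Irf4* most, with 18 reads in its lowest sample.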
